A study of Mus musculus with 14 samples.

Results

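The odorant receptor genes described here are the 111 genes whose symbol is Olfr followed by a number from 828 to 986 and that are listed in both normalized count tables, out of 51211 gene symbols shared by the tables. The rule uses the symbol and no measured value, though it was written with earlier results known, among them those of Olfr888 to Olfr890. All 111 lay on chromosome 9 (GRCm38, GENCODE annotation), in a proximal cluster of 31 genes from Olfr828 to Olfr873 (18814728 to 20303599) and a distal cluster of 80 genes from Olfr874 to Olfr986 (37745106 to 40190134), with 17.4 Mb between them. The annotation gave 108 of them as protein coding and Olfr908, Olfr915 and Olfr936 as polymorphic pseudogenes, which are genes that are intact in some strains and broken in others.

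RNA of the whole olfactory epithelium was sequenced from 14 mice at postnatal day 5, in a pair of separate experiments. In the Kir2.1 experiment, 3 Kir2.1 mice carried Omp-IRES-tTA together with tetO-Kir2.1-IRES-tauLacZ, and 3 control mice carried Omp-IRES-tTA without the tetO allele. The transgene is therefore driven from the Omp locus, which is used by mature olfactory sensory neurons, and encodes a potassium channel that silences them. In the PEA experiment, 4 pups were exposed to phenylethylamine odor from postnatal day 0 to day 5, and 4 control pups were not. The sample records give C57BL/6 for all 14 mice and wild type for the PEA experiment, whereas the study's methods name CD-1 pups for odor exposure, so the strain of the PEA mice is uncertain. Nothing in the labels says how the pups of a group were spread over litters.

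Odorant receptors are G-protein-coupled receptors on the cilia of olfactory sensory neurons, and a mature neuron expresses 1 allele of 1 receptor gene. The receptor sets which odors a neuron answers and, in the olfactory bulb, where its axon ends, so that the RNA of a receptor gene in whole epithelium follows how many neurons chose it and how much RNA each of them holds. Fewer neurons and less RNA per neuron cannot be told apart in these bulk samples. Class II receptors, to which these genes belong, are the larger class in mammals and lie in clusters that grew by tandem duplication.

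The coding sequences of the 111 genes were compared with each other, and how the genes arose was not examined. Their coding sequences were 915 to 993 bp long, and the nearest other gene of the set was 57.8% to 98.1% identical (median 87.9%), with 44 genes at 90% or more. Pairs within a cluster had a median identity of 64.4% and pairs across the clusters 55.9%. A read can be placed on a gene only where the gene differs from its relatives, and between 0% and 57.2% (median 8.30%) of the 31-base words in the exons of these genes also occurred in another gene. For 47 of the 111 the share was above 10%, and their values are less certain than those of the others. The most ambiguous gene was Olfr952, which is 98.1% identical to Olfr955 and was listed at 0 in 13 of 14 mice.

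Olfr887 to Olfr890 form a run of close relatives within the distal cluster and hold the largest differences found here, so a matched stretch of their coding sequence is shown. The run is on the plus strand, and 17391 bp separate Olfr887 from Olfr888, 3817 bp Olfr888 from Olfr889 and 21272 bp Olfr889 from Olfr890. Olfr888, Olfr889 and Olfr890 were 90.02% to 92.8% identical to each other, Olfr887 was 86.4% to 88.1% identical to these, and the next gene, Olfr891, only 62.4% to 64.4% identical to all 4. The stretch covers coding bases 301 to 390 of Olfr889 (chr9:38116083-38116172) and the aligned bases of Olfr888 (chr9:38108988-38109077), Olfr890 (chr9:38143437-38143526) and Olfr887 (chr9:38085123-38085212). Capitals mark the bases that differ from Olfr889, which number 1 in Olfr888, 4 in Olfr890 and 6 in Olfr887.
Olfr889: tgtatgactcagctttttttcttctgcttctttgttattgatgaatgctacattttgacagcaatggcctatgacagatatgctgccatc
Olfr888: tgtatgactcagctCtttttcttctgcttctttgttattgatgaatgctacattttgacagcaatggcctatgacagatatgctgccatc
Olfr890: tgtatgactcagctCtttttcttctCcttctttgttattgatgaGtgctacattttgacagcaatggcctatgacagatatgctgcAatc
Olfr887: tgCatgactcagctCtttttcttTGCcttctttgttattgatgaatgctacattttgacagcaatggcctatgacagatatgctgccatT

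The deposited values are gene-level estimates scaled by the authors, called normalized counts here. They summed to 33049111 to 34198478 per mouse in the Kir2.1 experiment and to 11476120 to 12467331 in the PEA experiment, which are sums after scaling and not the depth of the libraries. Kcnj2, the gene for the Kir2.1 channel, lay at 986 to 1274 in the control mice and at 17926 to 24193 in the Kir2.1 mice. The titles of the latter read Kir2.1-Off, a name the study uses for mice whose transgene was switched off by doxycycline later in life, whereas Kcnj2 was high in these libraries, taken at postnatal day 5. Omp, the marker of mature olfactory sensory neurons, was present in every mouse, at 21062 or more with Kir2.1 mice and their controls and at 6087 or more with PEA mice and their controls. A few libraries stood apart. Vomeronasal receptor genes, whose neurons lie in a neighbouring organ, averaged 6.06 (log2) in Kir2.1 control 1 and 2.42 to 2.51 in the rest of that experiment. The same average was 5.76, 4.69, 3.92 and 1.44 in PEA controls 1 to 4, and for exposed mice 1 to 4 it was 5.32, 1.71, 1.45 and 1.43. PEA control 4 had the highest summed level of the 111 receptor genes, 5736 against 2957 to 4257 in the other 7 mice.

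Nearly all of the receptor genes were expressed at postnatal day 5. Of the 111, 99 were above 0 in all 14 mice and none was at 0 in every mouse. Olfr926 and Olfr952 were listed at 0 in all 6 mice of the Kir2.1 experiment. Summed over the set, the control mice held 5719 ± 580 normalized counts in the Kir2.1 experiment (mean ± SD, n = 3) and 4108 ± 1203 in the PEA experiment (n = 4). This was 7.16% ± 0.474 and 9.38% ± 0.643 of the summed level of all Olfr genes with a number-only name in the same mice.

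Per kilobase of exon, the control level spanned 0 to 139.5 normalized counts per kb in the Kir2.1 experiment (median 14.01) and 0 to 80.2 in the PEA experiment (median 9.47). In the Kir2.1 experiment the 5 highest genes were Olfr969 (139.5 ± 19.8 per kb), Olfr857 (96.9 ± 12.2), Olfr972 (64.0 ± 9.05), Olfr884 (50.6 ± 25.0) and Olfr957 (49.3 ± 7.06), each mean ± SD over 3 control mice. Olfr969 and Olfr857 were next to each other in this order and differed by more than their SDs, while Olfr972, Olfr884 and Olfr957 lay within the SD of Olfr884 of one another. Among the PEA controls the order was Olfr969 (80.2 ± 18.6 per kb, n = 4), Olfr857 (58.8 ± 20.4), Olfr959 (41.8 ± 13.8), Olfr972 (41.8 ± 11.4) and Olfr835 (38.0 ± 10.001). Olfr969 exceeded Olfr857 there by a little more than either SD, and each of the others lay within 1 SD of the next. Olfr969, Olfr857 and Olfr972 were thus among the 5 highest in both sets of control mice. The median per kb was 13.4 in the proximal and 14.1 in the distal cluster in the Kir2.1 experiment, and 11.0 and 8.48 in the PEA experiment.

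Across the 111 genes the control levels of the experiments followed each other, with a Pearson r of 0.734 on the log2 scale and a Spearman rho of 0.740. The points share gene length and the authors' pipeline, and the tables were scaled apart from each other, so this is a description of the order of genes and not of absolute levels. The study's methods also give different library types, poly-A selected and unstranded for Kir2.1, stranded and depleted of ribosomal RNA for PEA. The strain of the PEA mice is uncertain. The part of library type and strain in these levels was not tested. Olfr888, Olfr889, Olfr890 and Olfr975 were the only genes with a control mean of at least 10 in the Kir2.1 experiment and under 3 in the PEA experiment, and no gene had the opposite pattern. Their control means were 13.6, 79.6, 28.4 and 31.1 in the Kir2.1 experiment, and 0.686, 0, 0.629 and 2.79 in the PEA experiment. These 4 genes were picked out after their values were seen.

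**Figure D1:**
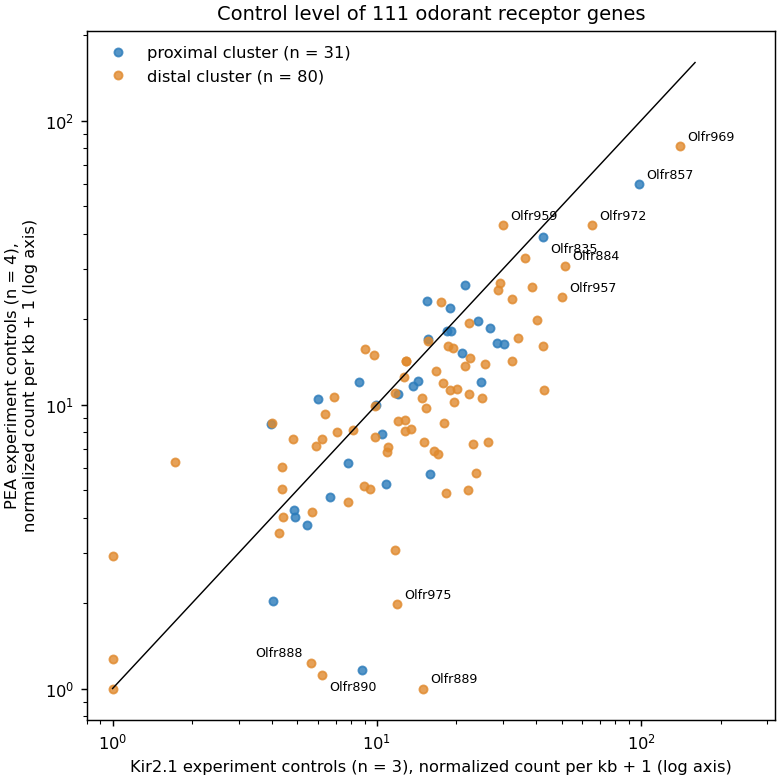
Mean level of each of the 111 receptor genes in control mice of the Kir2.1 experiment (x axis, n = 3) against that in control mice of the PEA experiment (y axis, n = 4), as normalized counts per kb of exon plus 1 on log axes, with proximal genes in blue and distal genes in orange. The line marks equal values. Olfr969 and Olfr857 are highest on both axes, and Olfr888, Olfr889, Olfr890 and Olfr975 lie far below the line.

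Silencing of the sensory neurons was examined first. Of the 111 genes, 98 reached a mean of 10 normalized counts in the Kir2.1 experiment and entered a limma fit of log2(normalized count + 1) over the 19807 genes that passed this filter. For genes near 0 the added 1 makes changes look smaller than they are. Olfr857 was the 1 receptor gene of the set with a Benjamini-Hochberg adjusted p under 0.05, and it was lower in the Kir2.1 mice. Over all 19807 genes 0.353% passed that threshold. At an unadjusted p under 0.05, 21 of the 98 were lower, against 6.2% of all genes, while 0 were higher, against 4.93% of all genes. For 30 of the 98 the highest Kir2.1 mouse was under the lowest control, against 9.04% of all genes, and the reverse was true of 0, against 7.26% of all genes. The log2 fold change was negative for 82 of the 98 (83.7%), and its median was -0.43, where the median over all genes was 0.01. With every mouse centred on its other Olfr genes, 45.9% were negative and the median turned to 0.032, so the direction holds relative to all genes and not relative to the rest of the receptor family. For the 912 other tested Olfr genes named by a number alone the median was -0.46, and 240 were lower and 4 higher by the same measure. The share of the set in the summed level of such Olfr genes was 7.21% ± 0.219 in the Kir2.1 mice against 7.16% ± 0.474 in the controls (n = 3 per group).

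**Figure D2:**
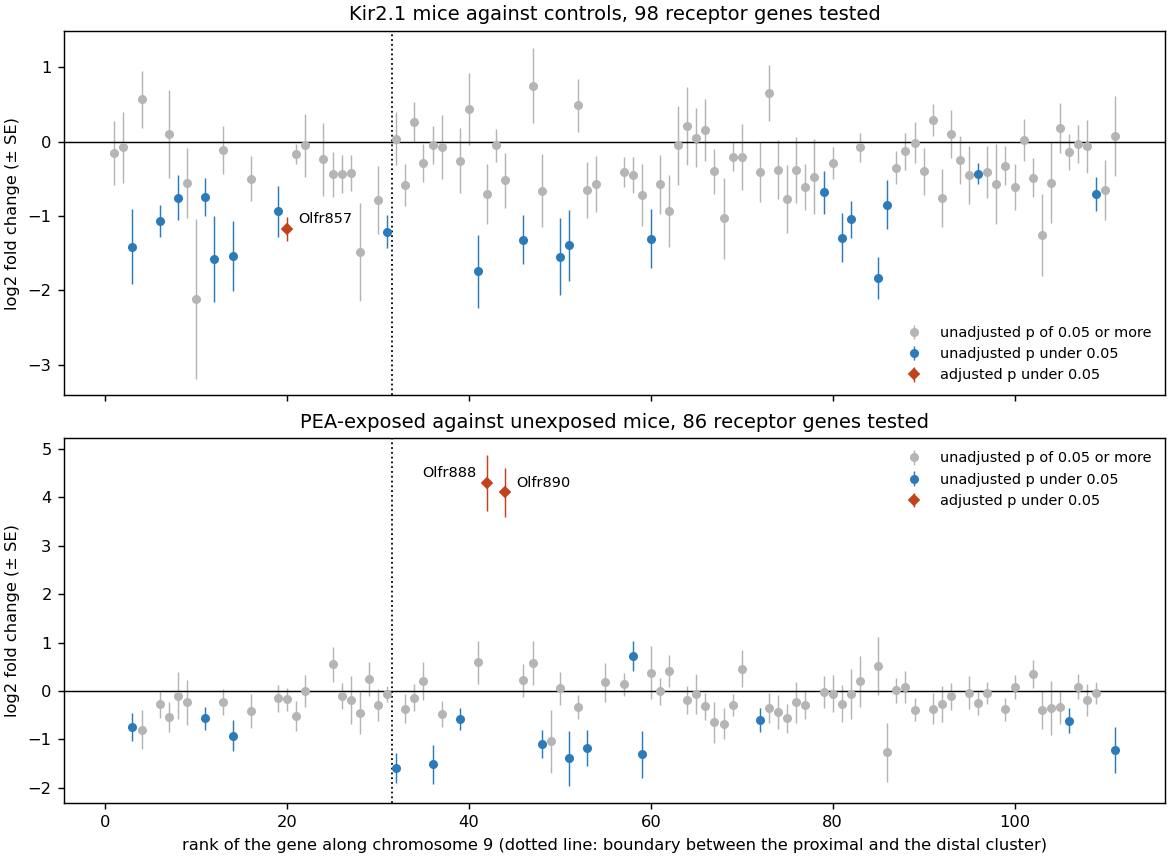
Log2 fold change with its SE (y axis) of each tested receptor gene by its rank along chromosome 9 (x axis), for Kir2.1 mice against controls (top, 98 genes) and for PEA-exposed against control mice (bottom, 86 genes), on axes of different range. Most points lie below 0 in the top panel, 82 of 98 on the deposited scaling and 45.9% when centred on the other Olfr genes, and Olfr857 is the called gene. In the bottom panel Olfr888 and Olfr890 stand at 4.30 and 4.11, above all other genes of the set.

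Olfr857 lies in the proximal cluster (ENSMUSG00000094678, chromosome 9, 19709433 to 19714930, plus strand) and was the second most abundant gene of the set per kb. It was listed at 199.6, 255 and 216 in controls 1 to 3, and at 92.4, 111 and 92.2 in Kir2.1 mice 1 to 3. The groups did not overlap, and the highest Kir2.1 mouse was well below the lowest control mouse. It fell, with group means of 223 ± 28.2 and 98.4 ± 10.5 (SD over 3 mice each) and an estimated log2 change of -1.17 (SE 0.16, limma adjusted p = 0.0422). Dropping any single mouse kept the direction, but the limma adjusted p rose to between 0.0923 and 0.183, and the call was lost in each of 6 such fits.

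Of the 31-base words of Olfr857, 38.1% occur in another gene, and its closest relative in the set is Olfr859 (91.6% identical). A stretch of both is printed as an example, and it is less alike than the coding sequences as a whole. It covers coding bases 301 to 390 of Olfr857 (chr9:19713129-19713218) and of Olfr859 (chr9:19808620-19808709), and capitals mark the 13 bases of Olfr859 that differ.
Olfr857: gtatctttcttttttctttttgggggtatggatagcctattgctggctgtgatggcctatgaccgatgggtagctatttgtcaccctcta
Olfr859: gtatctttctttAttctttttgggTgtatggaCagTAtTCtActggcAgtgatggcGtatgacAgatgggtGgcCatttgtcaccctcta
Olfr859 itself was at 251, 234 and 259 in the control mice and at 193, 217 and 256 in the Kir2.1 mice. These groups overlapped, and the log2 fold change was -0.17 (SE 0.14, limma adjusted p = 0.748). The difference between the fold changes of both genes was not tested.

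The other 9 of the 10 genes with the lowest p were lower in every Kir2.1 mouse than in any control mouse but did not pass the adjusted threshold. Genes picked by their p tend not to overlap, so this only describes these 9. Olfr954, a distal gene that is 96.1% identical to Olfr951, had the largest fold change among them. It was at 69.7, 105.7 and 75.9 in the control mice and at 29.3, 22.1 and 17.2 under Kir2.1 (log2 fold change -1.83 ± 0.29 SE, limma adjusted p = 0.0680). Every Kir2.1 value was under 30, less than the lowest control value by a wide margin.

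Olfr873, the last gene of the proximal cluster, was at 103, 106 and 142 in the control mice and at 42.4, 60.8 and 47.0 in the Kir2.1 mice (-1.21 ± 0.22 SE, limma adjusted p = 0.103). Olfr835, also proximal, was at 97.9, 131 and 107 against 44.6, 64.0 and 50.4 (-1.07 ± 0.21 SE, limma adjusted p = 0.130). Both have under 1% of their 31-base words in another gene, 0.815% and 0.113%, so that these values rest almost wholly on reads of their own. Their lowest control mouse was in each case more than 30 above the highest Kir2.1 mouse.

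Olfr948 was at 90.3, 104 and 89.2 in the control mice and at 32.6, 51.0 and 55.6 in the Kir2.1 mice (-1.04 ± 0.25 SE). Olfr893 was at 37.9, 52.3 and 45.9 against 25.8, 15.5 and 13.2 (-1.32 ± 0.33 SE). Olfr945 was at 55.1, 49.7 and 29.3 against 15.4, 20.5 and 15.5 (-1.29 ± 0.33 SE). These 3 distal genes had limma adjusted p of 0.187, 0.205 and 0.210. Olfr914, also distal, was at 27.3, 35.3 and 37.8 against 7.97, 20.9 and 12.4 (-1.31 ± 0.40 SE).

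The 2 remaining genes varied most among control mice. Olfr887 was at 29.1, 48.3 and 15.0 in the control mice and at 10.2, 6.65 and 6.30 in the Kir2.1 mice (-1.75 ± 0.49 SE). Olfr849, a proximal gene with no 31-base word shared, was at 153, 109.7 and 67.5 against 17.7, 48.8 and 50.1 (-1.54 ± 0.47 SE). Their lowest control mouse, control 3 in both, was still above the highest Kir2.1 mouse. The limma adjusted p of Olfr887, Olfr849 and Olfr914 were 0.248, 0.289 and 0.289.

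The most abundant genes other than Olfr857 had smaller fold changes. Olfr969, the highest per kb, was at 188, 232 and 249 in the control mice and at 169.8, 164 and 158 in the Kir2.1 mice, with no overlap (-0.43 ± 0.15 SE, limma adjusted p = 0.335). Olfr972, Olfr957 and Olfr884 overlapped between groups, and their log2 estimates were -0.32 ± 0.26 SE, -0.35 ± 0.22 SE and -0.26 ± 0.44 SE. Olfr884 was at 69.6 in control 1 but at 202 and 213 in controls 2 and 3, a wider spread than the difference between groups.

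At the other end of the set, 16 of the 98 genes had a positive log2 fold change. The largest were those of Olfr894 (0.75 ± 0.51 SE, limma adjusted p = 0.677) and Olfr933 (0.65 ± 0.37 SE, limma adjusted p = 0.606), which are named after their values were seen. Olfr933 was at 28.9, 58.3 and 56.5 in the control mice and at 102, 75.0 and 49.3 in the Kir2.1 mice, so the groups overlapped. The most negative estimate, -2.12 for Olfr844, had an SE of 1.07. Kir2.1 mouse 3 was listed at 0 while mice 1 and 2 were at 10.9 and 9.21, and control 1 (7.14) lay among them and apart from controls 2 and 3 (34.3 and 33.6).

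**Figure D3:**
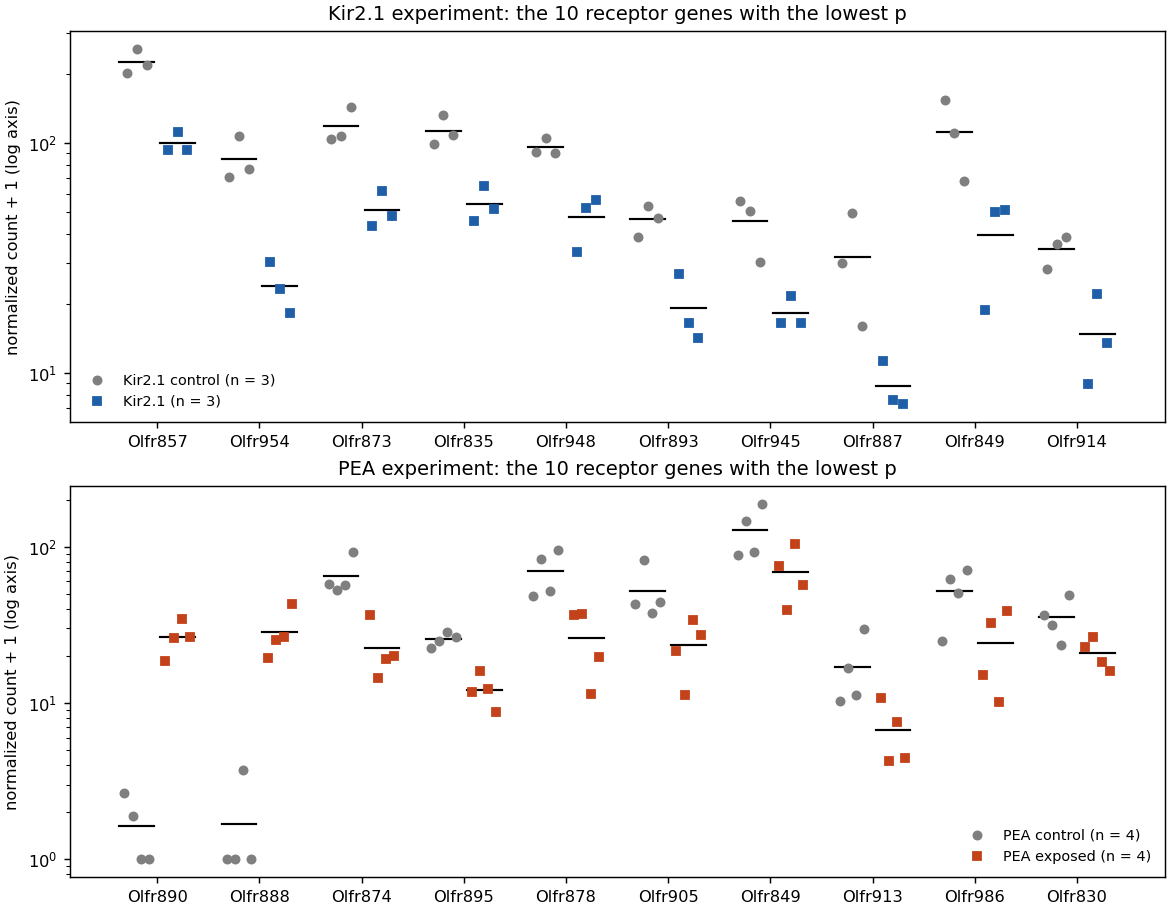
Normalized count plus 1 on a log axis (y axis) in each mouse for the 10 genes with the lowest p in the Kir2.1 experiment (top) and in the PEA experiment (bottom), with controls as grey circles, Kir2.1 or PEA-exposed mice as coloured squares and group means as black lines. All 10 genes, which were picked by their p, are lower without overlap in the top panel. In the bottom panel Olfr890 and Olfr888 are higher and the other 8 have lower means in exposed mice, 4 of these without overlap.

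Both clusters had a negative median in the Kir2.1 experiment. In the proximal cluster 9 of 25 tested genes were lower at an unadjusted p under 0.05 (6.2% of all genes) and 10 did not overlap (9.04% of all genes), with a median log2 fold change of -0.56. In the distal cluster 12 of 73 were lower and 20 did not overlap, beside the same shares of all genes, with a median of -0.40. The difference between clusters was not tested. Summed levels were 1744, 1844 and 1639 for controls 1 to 3 and 920, 1338 and 1026 in Kir2.1 mice 1 to 3 for the proximal cluster. For the distal cluster they were 3349, 4395 and 4184 against 3576, 3015 and 2882. The proximal sums did not overlap between groups, whereas the distal sum of Kir2.1 mouse 1 was above that of control 1.

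The mice did not shift by the same amount in both clusters. The median deviation of the proximal genes from their control mean was -0.80, -0.19 and -0.91 (log2) in Kir2.1 mice 1 to 3, and that of the distal genes was -0.21, -0.35 and -0.51. Kir2.1 mouse 2 was therefore near the controls in the proximal cluster, where controls lay at 0.02, 0.14 and -0.15, while mice 1 and 3 were far below them. In the distal cluster control 1 lay at -0.24, below Kir2.1 mouse 1. Control 1 is also the library with the high vomeronasal receptor level. Without it the median over the set was -0.48, and 25 genes were lower and 2 higher before adjustment. The share of all genes is not given for that fit. The genes that share over 10% of their 31-base words had a median of -0.40 (39 tested, 4 lower at an unadjusted p under 0.05) and the others -0.48 (59 tested, 17 lower).

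**Figure D4:**
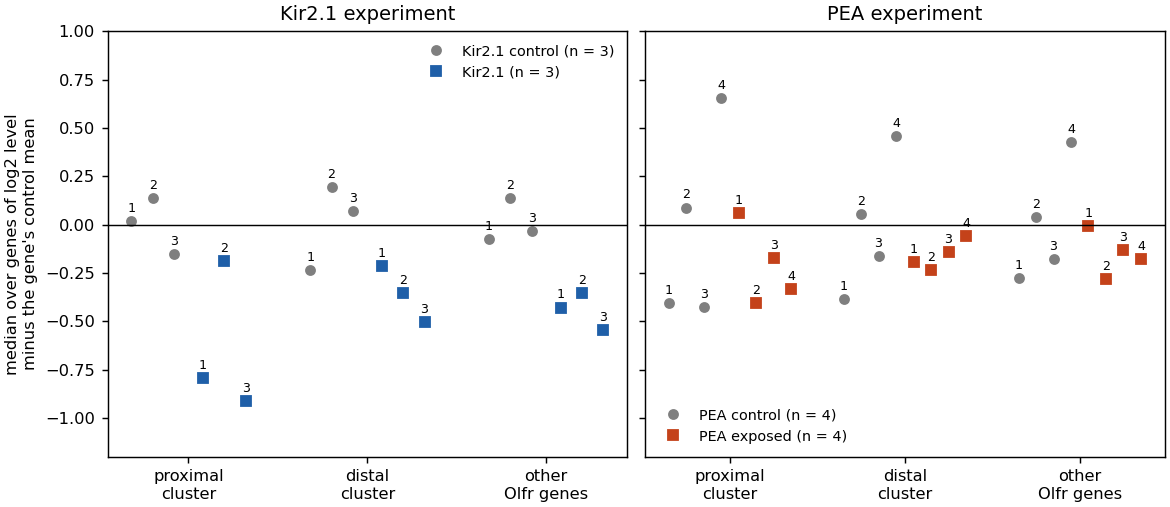
Median over the tested genes of the log2 level minus the gene's control mean (y axis) for each mouse, in the proximal cluster, the distal cluster and the other Olfr genes, with controls as grey circles and Kir2.1 or PEA-exposed mice as coloured squares numbered by mouse. In the Kir2.1 experiment mice 1 and 3 lie at -0.80 and -0.91 in the proximal cluster and mouse 2 at -0.19. In the PEA experiment control 4 lies above all other mice in each set of genes.

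Odor exposure was examined in the same way. Of the 111 genes, 86 had a mean of at least 10 in the PEA experiment and were tested among 17322 genes. Olfr888 and Olfr890 were the 2 with an adjusted p under 0.05 by limma, and both were higher in the exposed mice. They passed the filter only through that group, with control means of 0.686 and 0.629 and exposed means of 27.6 and 25.4, so that a tested gene of this kind had to differ. Over all genes 0.179% passed that threshold. At an unadjusted p under 0.05, 13 of the 86 were lower, against 6.04% of all genes, and 3 were higher, against 8.93% of all genes. Groups were fully apart for 5 lower genes, against 3.86% of all genes, and for 2 higher ones, against 5.46% of all genes. The log2 fold change was negative for 73.3% of the 86, or 58.1% when centred on the other Olfr genes. Its median was -0.23, where the median of all genes was -0.02 and that of the 857 other Olfr genes tested -0.16. These counts moved with PEA control 4, a mouse labelled replicate 4 whose library name carries the number 5. It was the highest of the 8 mice for 53 of the 86 genes. Without it the median was -0.07, and 4 genes were lower and 4 higher before adjustment. The share of all genes is not given for that fit.

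Olfr888, Olfr889 and Olfr890 were near absent from the control mice of the PEA experiment and present in each exposed mouse. Olfr888 (ENSMUSG00000095527, chromosome 9, 38108128 to 38111381) was listed at 0, 0, 2.74 and 0 in controls 1 to 4 and at 18.5, 24.1, 25.6 and 42.2 in exposed mice 1 to 4. Olfr890 (ENSMUSG00000096409, 38142517 to 38148375) was at 1.64, 0.878, 0 and 0 against 17.6, 25.0, 33.5 and 25.4. Both were higher in every exposed mouse than in any control mouse, with log2 fold changes of 4.30 (SE 0.58, limma adjusted p = 0.0179) and 4.11 (SE 0.50, limma adjusted p = 0.00995). These p belong to genes that entered the fit only through their exposed values, so they are a description and not support. The sizes depend on the 1 that was added before taking logs, since control values were at or near 0. The fold change of Olfr888 was 2.50 with 5 added and 5.07 with 0.5 added, and that of Olfr890 was 2.42 and 4.77.

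Olfr889, which lies between them (ENSMUSG00000096356, 38115198 to 38121245), had a mean under 10 and was not tested in the first place. It was listed at 0 in all 4 controls and at 4.24, 14.9, 10.4 and 11.8 in exposed mice 1 to 4, so the groups did not overlap, and an exact two-sided permutation test gave p = 0.0286, the smallest that 4 against 4 mice allow. In the fit without the filter on low values it had an adjusted p = 0.00870 by limma, and with Olfr888 and Olfr890 made 3 genes of the set called there, where 0.153% of 33983 genes were called. No fold is given for it because all controls were at 0. It entered the unfiltered fit only through its exposed values, and it was known beforehand to differ. Both p and the count of 3 genes are therefore a description and not support. The exposed mouse with the highest value was mouse 4 for Olfr888, mouse 2 for Olfr889 and mouse 3 for Olfr890.

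The neighbours on either side did not show that pattern. Olfr887, on the near side, was at 24.7, 13.2, 18.0 and 28.1 in the controls and at 56.4, 37.0, 36.8 and 11.9 in the exposed mice, where mouse 4 was below every control (log2 fold change 0.60 ± 0.44 SE, limma adjusted p = 0.562). Olfr891, on the far side, was at 0 in 7 of 8 mice and at 1.03 in control 3. In the stretches printed above, Olfr888, Olfr889 and Olfr890 differ from each other at few bases. The genes are less alike as a whole, with coding sequences 90.02% to 92.8% identical to each other. Over their exons, 15.1%, 12.2% and 11.7% of 31-base words also occur in another gene, so part of the reads of 1 of them could be counted on another. The study's methods give reads longer than 31 bases, and longer in the PEA than in the Kir2.1 experiment. The share of ambiguous reads can therefore be smaller than that of words, and it was not computed.

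In the Kir2.1 experiment these genes were present in all 6 mice. Olfr889 was at 86.1, 71.1 and 81.6 in the control mice and at 70.3, 64.2 and 99.6 under Kir2.1, with overlap (log2 fold change -0.05 ± 0.22 SE, limma adjusted p = 0.967). Olfr890 was at 35.0, 32.5 and 17.8 against 20.6, 22.1 and 14.3 (-0.52 ± 0.37 SE), also with overlap. Olfr888 was at 14.5, 15.1 and 11.2 against 6.36, 10.8 and 7.10 (-0.71 ± 0.40 SE, limma adjusted p = 0.595), without overlap. Olfr889 was thus the highest of the 3 in the Kir2.1 experiment and the lowest in the exposed mice of the PEA experiment. The experiments differ in library type and perhaps in strain, and the part of either in this order was not tested. Olfr891 was at 0.959 in Kir2.1 mouse 1 and at 0 in the other 5 mice.

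**Figure D5:**
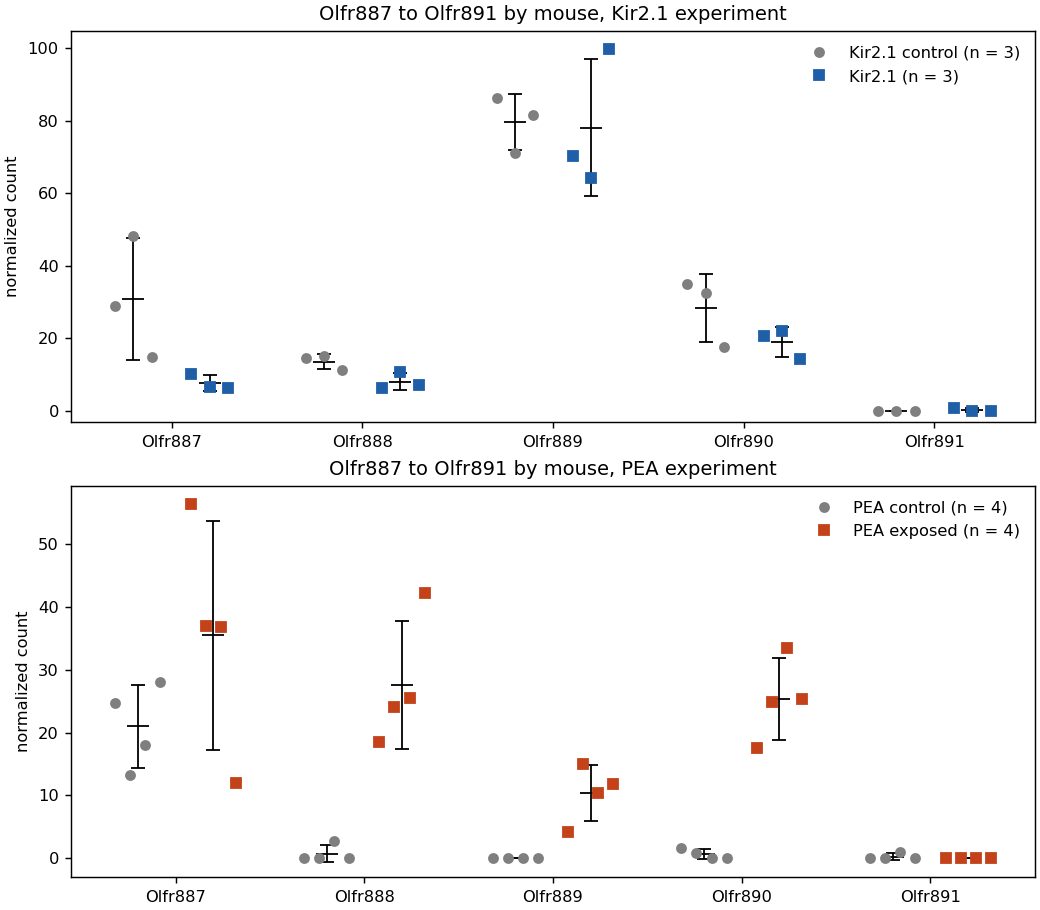
Normalized count (y axis, linear) of Olfr887 to Olfr891 in each mouse of the Kir2.1 experiment (top) and the PEA experiment (bottom), with controls as grey circles, Kir2.1 or PEA-exposed mice as coloured squares, and the mean ± SD in black. In the bottom panel Olfr888, Olfr889 and Olfr890 lie at 0 to 2.74 in the controls and at 4.24 to 42.2 in the exposed mice, while in the top panel they lie at 6.36 to 99.6 in all 6 mice.

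The call of Olfr888 and Olfr890 held in 5 of 8 fits with a mouse left out, with adjusted p by limma from 0.00565 to 0.106 and from 0.00822 to 0.0863, and was lost without exposed mouse 2, 3 or 4. With the vomeronasal receptor level of each mouse as a covariate, the adjusted p by limma was 0.0504 for Olfr888 and Olfr890 kept its call. Without PEA control 4, the adjusted p by limma was 0.0297 for Olfr888 and 0.0133 for Olfr890. These fits kept the filter that both genes passed only through the exposed mice, so they describe the call and do not test it.

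Among the lower genes, none passed the adjusted threshold. Olfr874, the first gene of the distal cluster, had the lowest p. It was at 56.9, 52.1, 55.7 and 92.1 in the controls and at 35.6, 13.5, 18.1 and 18.9 in the exposed mice, with no overlap (log2 fold change -1.58 ± 0.31 SE, limma adjusted p = 0.0847). Exposed mouse 1 was the highest of its group, and without it the adjusted p by limma was 0.0370. Leaving out the exposed mouse nearest the controls widens the difference, so that value is no support. Control 4 was the highest of the controls, and without it the fold change was -1.40 (adjusted p = 0.0988 by limma).

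Olfr895, Olfr878 and Olfr905, all distal, did not overlap between groups either. Olfr895 was at 21.5, 23.8, 27.5 and 25.5 in the controls and at 10.8, 15.0, 11.3 and 7.79 in the exposed mice (-1.095 ± 0.28 SE, limma adjusted p = 0.138). Olfr878 was at 47.2, 82.7, 51.3 and 93.8 against 35.4, 36.4, 10.4 and 18.8 (-1.51 ± 0.40 SE, limma adjusted p = 0.142). Olfr905 was at 42.0, 81.0, 36.8 and 43.6 against 20.7, 10.2, 33.0 and 26.3 (-1.18 ± 0.38 SE, limma adjusted p = 0.201). Without PEA control 4, Olfr874, Olfr878, Olfr895 and Olfr905 were the 4 genes lower at an unadjusted p under 0.05. Olfr895 was the steadiest of them, with a control SD of 2.53 on a mean of 24.6.

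For Olfr849, Olfr913, Olfr986 and Olfr830 the groups overlapped. Their log2 fold changes were -0.92 (SE 0.33), -1.31 (SE 0.49), -1.21 (SE 0.47) and -0.74 (SE 0.29), with limma adjusted p of 0.239 to 0.280. PEA control 4 was the highest mouse for all 4, at 187, 29.0, 69.9 and 48.3. Without it Olfr849, Olfr986 and Olfr830 had log2 fold changes of -0.71, -1.03 and -0.56 and no longer had an unadjusted p under 0.05, and Olfr913 no longer passed the filter.

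The most abundant genes differed little between exposed and control mice. The log2 fold changes of Olfr969, Olfr857, Olfr959, Olfr972 and Olfr835 lay between -0.38 and -0.17, with limma adjusted p of 0.490 to 0.783 and overlap between groups for each. Olfr857 was at 119, 107, 110.4 and 206 in controls 1 to 4 and at 142, 99.5, 138 and 92.4 in the exposed mice. Its sign rested on control 4, since without that mouse the log2 fold change was 0.050.

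By cluster, 3 of 21 proximal and 10 of 65 distal genes tested were lower at an unadjusted p under 0.05 (6.04% of all genes), and the median log2 fold change was -0.23 in both. Without PEA control 4 these counts were 0 and 4. The 3 genes higher at that level were Olfr888, Olfr890 and Olfr912, all distal. Olfr912 was at 9.61, 10.2, 9.07 and 18.5 in the controls and at 19.4, 15.7, 20.1 and 23.2 in the exposed mice (0.72 ± 0.32 SE, limma adjusted p = 0.323). Control 4 lay within the exposed range. Summed over the set, exposed mice held 3630, 2957, 3440 and 3483 normalized counts and controls 3013, 4257, 3424 and 5736, so the groups overlapped.

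The experiments have no mouse in common, so their fold changes can be set side by side. Of 83 genes tested in both, 49 had a negative log2 fold change in both, 1 a positive one in both, 20 were negative in the Kir2.1 and positive in the PEA experiment, and 13 the reverse. Taken alone, 83.7% of the tested genes of the set were negative in the Kir2.1 experiment and 73.3% in the PEA experiment. At an unadjusted p under 0.05, 20 of the 83 were lower in the Kir2.1 and 13 in the PEA experiment. Olfr830, Olfr845, Olfr849 and Olfr902 were lower in both, which is 4 of the 20 and 30.8% of the 13. They are 4.82% of the 83, where 0.581% of all genes tested in both and 2.02% of the other Olfr genes were lower in both. Of the genes lower in the Kir2.1 experiment these are 8.49% for all genes and 7.49% for the other Olfr genes. Of those lower in the PEA experiment they are 9.71% and 20.7%. Without PEA control 4 the number of the set lower in both was 0. The 4 genes are named after their values were seen, and none of them passed the adjusted threshold in either experiment.

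Olfr902, a distal gene, had nearly the same estimate in both, -1.40 (SE 0.48) and -1.39 (SE 0.57). It was at 17.6, 23.0 and 15.6 in Kir2.1 controls against 12.1, 4.04 and 5.14 in Kir2.1 mice, and at 14.7, 15.1, 16.6 and 28.6 against 18.3, 7.54, 5.79 and 1.499 in the PEA experiment. Exposed mouse 1 lay among the controls. Olfr845 had -0.75 ± 0.26 SE and -0.56 ± 0.24 SE, and Olfr830 had -1.41 ± 0.51 SE and -0.74 ± 0.29 SE, on the same log2 scale.

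Other genes that act in the same neurons were read from lists. Of 15 genes for odorant signalling, which carry the signal from the receptor to the membrane current, 11 were lower in Kir2.1 mice and 0 higher (unadjusted p under 0.05). Of all genes, 6.2% were lower and 4.93% higher by that measure. Pde1c, a phosphodiesterase of the cilia, was at 4351 ± 154 in controls and fell to 2772 ± 168 (SD over 3 mice each, log2 fold change -0.65 ± 0.07 SE, limma adjusted p = 0.0223). Omp, at 33338 ± 2501 in controls, fell to 22010 ± 1319 (-0.60 ± 0.08 SE, limma adjusted p = 0.0466). Adcy3, the adenylyl cyclase that makes the cAMP of the odor response, was at 17407 ± 1825 against 11912 ± 63.0 (-0.54 ± 0.09 SE, limma adjusted p = 0.0720). With PEA, 0 of the 15 passed the adjusted threshold while 3 were lower and 1 higher before adjustment, beside 6.04% and 8.93% of all genes. The lowest p were those of Gnal (-0.37 ± 0.11 SE), Slc8a3 (-0.80 ± 0.25 SE) and Omp (0.31 ± 0.11 SE).

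Of 20 genes for receptor choice and trafficking, 0 passed the adjusted threshold by limma in either experiment. At an unadjusted p under 0.05, the Kir2.1 mice had 3 lower and 0 higher, beside 6.2% and 4.93% of all genes. The 3 were Rtp2, Adcy3 and Rtp1. Rtp1 and Rtp2 encode proteins that carry odorant receptors to the cell surface, and their log2 fold changes were -0.38 (SE 0.07) and -0.45 (SE 0.07). Exposed mice had 2 lower and 2 higher at that level, beside 6.04% and 8.93% of all genes. Cbx5 (-0.29 ± 0.09 SE), Ehmt2 (0.42 ± 0.14 SE) and Emx2 (-0.41 ± 0.15 SE) had the lowest p, with limma adjusted p of 0.181 to 0.245.

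Markers of the cell types in the tissue moved beside the receptor genes in the Kir2.1 experiment. Of 15 markers of mature olfactory sensory neurons 14 were lower at an unadjusted p under 0.05 and 3 passed the adjusted threshold by limma, with a median log2 fold change of -0.41, close to the -0.43 of the receptor genes. The summed level of these markers was 175183 to 193612 in the control mice and 126933 to 142781 in the Kir2.1 mice. Most of these mature neuron markers, among them Omp, Adcy3, Rtp1 and Rtp2, are also in the odorant signalling or the receptor choice list. The counts of these lists therefore rest partly on the same genes and are not separate results. None of 10 markers of immature neurons, 6 of neuronal progenitors, 8 of sustentacular cells or 5 of horizontal basal cells had an unadjusted p under 0.05. Of 6 markers of respiratory ciliated cells 2 were higher at that level. All 5 blood markers were higher at that level, with sums of 11005 to 19897 in the controls and 20242 to 33607 in the Kir2.1 mice. Of 96 vomeronasal genes tested 5 were lower at that level, no more than the 6.2% of all genes. The median of the 96, -1.13, includes control 1, which stood apart. The part of these cell types in the result was not tested. Under PEA exposure 6.04% of all genes were lower and 8.93% higher by that measure. Of the 15 mature neuron markers 2 were lower and 1 was higher, with summed levels of 42348 to 48974 in the controls and 41861 to 48993 in the exposed mice. Of the immature neuron markers 2 of 10 were higher, of the horizontal basal cell markers 2 of 5, of the sustentacular markers 1 of 8 and of the ciliated cell markers 1 of 6, and none of the progenitor or blood markers tested passed in either direction. Of 123 vomeronasal genes tested 6 were lower, no more than the 6.04% of all genes. The median of the 123 was -1.47, and their level varied widely within both groups. The part of these cell types was not tested here either, and none of the 8 marker lists had a gene past the adjusted threshold by limma.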

How the data were processed

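RNA-seq tables of 14 olfactory epithelia at postnatal day 5 were used, 3 Kir2.1 and 3 control mice and 4 PEA-exposed and 4 control mice. The authors made the deposited normalized counts, a signal per gene, with Salmon 1.3.0 on the GRCm38 transcriptome, summed to genes and scaled with DESeq2 1.30.0; bcl2fastq 2.18 is named in the submitters' processing notes. The methods describe poly-A selected, unstranded libraries for Kir2.1 and stranded libraries depleted of ribosomal RNA for PEA, while Salmon is described with 1 reverse-stranded setting for all; the effect on the Kir2.1 values was not tested. Depth per library is unknown after scaling.

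Genes with a mean of at least 10 in an experiment were tested in it with limma 3.58.1 (R 4.3.3) on log2(normalized count + 1), with a mean-variance trend and Benjamini-Hochberg adjustment at 0.05, without a replicate block. Each control group served only its own experiment. The fit was tested on simulated data. P-values measure the spread between mice, and litters are not given. The study's methods put the odor vial into the cage of mother and pups, so exposure was given by cage. How many cages each group came from is not stated, so an effect of cage or litter cannot be told apart from exposure. Positions, exon lengths and coding sequences came from GENCODE (GRCm38), and shared words of 31 bases were counted over all transcripts on both strands; identities were computed with biopython 1.88. The rest was done in Python 3.11.15 (pandas 2.3.3, numpy 2.4.6, matplotlib 3.10.9, scipy 1.17.1).

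The receptor genes and lists were chosen with earlier results of these data known. Named genes were those called in either experiment with or without the filter, the 10 with the lowest p and the 5 highest per kb in control mice in each experiment, Olfr887 to Olfr891 and, from each pathway list, called genes and the 3 with the lowest p; others are marked as named after their values were seen. Alternatives were no filter, pseudocounts of 0.5 and 5, a minimum mean of 50, no trend, quantile normalization, centring on all genes or on the other Olfr genes, the replicate block, covariates for vomeronasal receptors and Xist, and each mouse left out. Same-numbered mice do not share an animal or a stated litter.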

Additional observations from a re-analysis of the deposited data

Results flagged for a closer look

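Single mice that stood apart from their group were looked for in the groups of 4 mice, by the gap between the most extreme mouse and the next relative to the range of the group; groups of 3 were too small. Chance marks about 1 in 20 groups. With 40 groups tried, 5 stood out, all among PEA controls. Control 4 was highest for Olfr857 (206, others 107 to 119) and for Olfr874 (92.1, others 52.1 to 56.9), and this mouse also had the highest summed receptor level. Control 2 was highest for Olfr905 (81.0, others 36.8 to 43.6). Control 3 was the 1 control mouse not at 0 for Olfr888 (2.74) and for Olfr891 (1.03), values near the lower end of what the table resolves. With the other controls at 0, any value above 0 is marked, so the rate of 1 in 20 does not hold for these genes.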

How the results depend on the processing

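In the Kir2.1 experiment 1 gene of the set was called; 0 were called without a trend, with the replicate block, with the vomeronasal or the Xist covariate, and in every fit without a mouse (0 to 0), and 7 when all genes were centred on the other Olfr genes. That centring moves the median of all genes to 0.47, and relative to it the median of the set was 0.032 instead of -0.43, with 8 lower and 6 higher genes (unadjusted p under 0.05) and 45.9% instead of 83.7% of genes negative. Over all genes, 9 were called with the replicate block, 22 with the vomeronasal covariate and 23 to 44 without a mouse. For the centred fit, and for unadjusted counts in all alternatives, the share of all genes is not given. Those counts describe the fits and are not read as results about the set. With a mean of at least 50, 9 genes of the set were lower (39 genes tested), and with the vomeronasal covariate 2 were higher. Leaving out a mouse gave 12 to 25 lower genes, 0 to 2 higher genes and a median of -0.56 to -0.31; 12 was the count without control 2.

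In the PEA experiment 2 were called; 0 were called with the replicate block and with a mean of at least 50, which removes Olfr888 and Olfr890, and 1 with the vomeronasal covariate. Over all genes, 23 were called with the replicate block, 19 with the vomeronasal covariate and 19 to 43 without a mouse. At an unadjusted p under 0.05, 3 genes of the set were lower and 0 were higher with a mean of at least 50, 8 were lower when centred on the other Olfr genes (58.1% of genes negative against 73.3%) and 20 with the vomeronasal covariate. The share of all genes at that level is not given for these fits, so the counts only describe them. Leaving out a mouse gave 0 to 3 called, 4 to 19 lower and 2 to 4 higher genes and a median of -0.36 to -0.07; the lower genes numbered 8, 4, 8 and 7 without control 2, control 4, exposed 2 and exposed 4.

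The replicate block pairs mice by number only. Correlations between deviations of mice with 1 number were -0.06, -0.01 and 0.16 (Kir2.1) and 0.13, -0.02, -0.05 and 0.10 (PEA), so these numbers are not taken as pairs; with the block the adjusted p by limma was 0.110 for Olfr857, 0.0813 for Olfr888 and 0.0856 for Olfr890.

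Signs turned for genes that were not called. Centred on the other Olfr genes, Olfr969, Olfr972, Olfr884, Olfr957 and Olfr889 had 0.034, 0.14, 0.21, 0.11 and 0.42 in the Kir2.1 experiment. Olfr889 had 0.0065 there with the vomeronasal covariate. Leaving out a mouse gave -0.24 to 0.076 for Olfr889 (above 0 without Kir2.1 mouse 1, Kir2.1 mouse 2 or control 1) and -0.78 to 0.023 for Olfr884 (above 0 without control 3), and for Olfr857 in the PEA experiment -0.27 to 0.050 (above 0 without control 4). Of 575 values of single genes, 540 kept direction and side of the threshold. The cause of these changes was not tested. Depth after scaling is unknown, so values near 0 cannot be given a detection limit.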
